A study of Homo sapiens with 4 samples.

Results

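The genes described here are 36 genes of glycolysis and of the response to low oxygen, out of 11963 genes to which at least 1 probe set of the array was assigned alone. They were grouped by known function: 20 encode glycolytic enzymes and the transporters that bring glucose in or take lactate out, and 16 are other hypoxia-responsive genes. Their transcripts were measured in LAPC4, an androgen-dependent prostate cancer line of human origin, with 1 Affymetrix U133 array for each of 4 conditions. Control cells carried a lentiviral GFP vector, and β-TrCP shRNA cells carried, in a lentiviral vector, an shRNA against both β-TrCP isoforms. The control is described in the labels as a GFP vector and in the study's text as the shRNA vector without doxycycline, so that effects of vector or doxycycline cannot be told apart from those of the shRNA. Each kind of cell was kept for 72 h either in 10% fetal calf serum (FCS) supplemented with the synthetic androgen methyltrienolone at 100 pM, or in 10% charcoal stripped serum (CSS), the androgen ablation. CSS differs from FCS in other hormones and lipids as well, and whether any difference came from androgen or from another component cannot be told apart. Since LAPC4 is 1 line and each condition has 1 array, no comparison of 2 arrays has a replicate check.

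Glycolysis splits glucose into pyruvate in a chain of cytosolic enzymes, and lactate dehydrogenase turns pyruvate into lactate while renewing the cofactor that the chain uses. Most of these enzymes are also transcriptional targets of the hypoxia-inducible factors (HIFs), which pair an oxygen-sensitive α subunit with the stable subunit ARNT and bind DNA at a short element with the core ACGTG or GCGTG. In normal oxygen, prolyl hydroxylases mark the α subunit for the ubiquitin ligase of the von Hippel-Lindau protein. β-TrCP is the substrate-binding subunit of another ubiquitin ligase, of the SCF type. In prostate cancer cells androgen is known to raise glucose uptake and glycolysis.

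Values are normalized log2 signals of the brightest probe set of a gene, and a change is the difference of 2 such values, so that 1 is a 2-fold difference. Signals under 20 were set to a floor of 20 (log2 4.32), and a change against an array at the floor is only a bound. The local spread given beside some changes was taken from the 1000 probe sets of most similar signal, as the scaled median absolute deviation of their ratios between the same arrays. It describes how much probe sets of that brightness differ between these arrays, whatever the cause, and is no replicate error. Of the 36 genes, 31 were measured above the floor on at least 1 array, PFKP was at the floor on all 4, ENO2 and PLOD2 were under the filter, and SLC16A3 and CA9 had no probe set assigned to them alone. SLC2A3, CA12 and LOX were measured but at the floor on some arrays. These genes had 64 probe sets in all, of which 49 passed the filter.

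The shRNA target FBXW11 (β-TrCP2) had values of 8.02 in control cells in FCS, 8.19 in control cells in CSS, 5.02 in shRNA cells in FCS and 4.68 in shRNA cells in CSS, whereas BTRC (β-TrCP1) was near the floor throughout, at 4.32 to 4.64. The array of shRNA cells in CSS stood apart: its correlation with the other arrays was 0.923 to 0.925, against up to 0.989 among the rest, and its interquartile range was 2.07 against 2.69 to 2.74 as deposited. The local spread of dim genes was wider in comparisons with that array, for PFKFB3 0.92 against 0.19 to 0.20 in comparisons without it. The array of control cells in CSS had a 3′ minus 5′ difference of 1.03 for the ACTB control probe sets against 0.41 to 0.45 on the others, and higher signals of the 5′ rRNA control probe set (6.02 against 5.08 to 5.25). The part of either in the results was not tested. Of 10 markers of prostate luminal epithelium 7 were measured, all above the floor on every array, with a summed linear signal of 5351 to 7405, and FOLH1 was under the filter. Of these 7, limma called 3 as higher in CSS, KLK3 (0.54), KRT8 (0.66) and KRT18 (0.32), against 1.17% of all genes. It called 2 as lower with shRNA, KLK2 (-1.82) and KLK3 (-1.18), against 2.33% of all genes. For serum the KLK2 estimate was 0.11 and was not called. The part of these marker differences in the results was not tested. The fibroblast list (5 of 8 measured) summed to 113 to 118 on 3 arrays and 178 in shRNA cells in CSS, where single leukocyte (CD14, of 8) and endothelial (ENG, of 6) genes also left the floor. On the array of shRNA cells in CSS 35.0% of all probe sets were under the floor as deposited, against 41.7% to 42.0% on the others. Of the erythroid list none of 5 was measured.

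The stretch around the transcription start, from 250 bases before it to 50 after it, was available for 32 of the 36 genes in RefSeq (GRCh38.p14). The HIF core ACGTG occurred on either strand in 14 of these 32 promoters (43.8%), against 21.6% of all 27305 promoters in the table and 26.2% of 7448 promoters of genes kept on the array. GCGTG occurred in 16 of 32 (50%), against 36.3% and 49.9%, and the palindrome CACGTG, which contains ACGTG on both strands, in 5 of 32, against 7.43% and 10.3%. A match is a description of letters and not of binding. The 5 promoters below belong to genes that the results turn on, written 5′ to 3′ along the gene with matches to ACGTG on either strand in capitals. LDHA (chr11:18394313-18394612, plus strand) and ALDOC (chr17:28576846-28577145, minus strand) hold several matches, P4HA1 (chr10:73096817-73097116, minus strand) and GPI (chr19:34364742-34365041, plus strand) hold 1 each, and MXI1 (chr10:110207355-110207654, plus strand) holds none in this window.
LDHA: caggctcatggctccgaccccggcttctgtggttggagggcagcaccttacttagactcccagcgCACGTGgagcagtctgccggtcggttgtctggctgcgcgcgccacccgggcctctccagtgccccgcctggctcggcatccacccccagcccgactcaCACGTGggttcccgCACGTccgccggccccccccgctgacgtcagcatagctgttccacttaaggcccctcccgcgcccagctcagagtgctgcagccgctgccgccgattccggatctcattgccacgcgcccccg
ALDOC: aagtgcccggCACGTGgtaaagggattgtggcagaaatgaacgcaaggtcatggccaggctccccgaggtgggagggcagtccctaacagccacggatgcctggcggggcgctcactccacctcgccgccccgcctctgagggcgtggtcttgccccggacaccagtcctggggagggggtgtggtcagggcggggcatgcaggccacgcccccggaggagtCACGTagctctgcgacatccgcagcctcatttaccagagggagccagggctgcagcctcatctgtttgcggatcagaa
P4HA1: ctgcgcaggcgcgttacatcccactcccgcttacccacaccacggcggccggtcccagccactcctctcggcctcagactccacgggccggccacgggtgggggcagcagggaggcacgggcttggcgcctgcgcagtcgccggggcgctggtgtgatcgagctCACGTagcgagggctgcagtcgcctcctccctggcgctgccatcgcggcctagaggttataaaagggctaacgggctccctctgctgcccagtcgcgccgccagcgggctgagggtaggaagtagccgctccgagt
GPI: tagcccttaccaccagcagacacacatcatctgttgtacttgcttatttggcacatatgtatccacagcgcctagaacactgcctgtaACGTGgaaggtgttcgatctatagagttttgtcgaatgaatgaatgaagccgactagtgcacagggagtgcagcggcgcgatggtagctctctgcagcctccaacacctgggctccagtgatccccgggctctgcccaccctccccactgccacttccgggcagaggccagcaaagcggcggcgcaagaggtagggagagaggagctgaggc
MXI1: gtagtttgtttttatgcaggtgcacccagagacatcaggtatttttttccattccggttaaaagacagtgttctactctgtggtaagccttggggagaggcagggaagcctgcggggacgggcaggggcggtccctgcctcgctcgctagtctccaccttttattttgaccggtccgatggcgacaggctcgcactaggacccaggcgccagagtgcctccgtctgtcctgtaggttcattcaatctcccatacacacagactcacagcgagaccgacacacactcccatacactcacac
Counted from the first base of each window, the matches lie at 66 to 71, 164 to 169 and 178 to 182 in LDHA, at 11 to 16 and 223 to 227 in ALDOC, at 165 to 169 in P4HA1 and at 89 to 93 in GPI. Of the 14 genes whose promoters hold the core, 10 had a change for CSS in control cells, 7 higher and 3 lower. Of the 18 whose windows lack it 16 had one, 11 higher and 5 lower. With shRNA in FCS, 9 genes with the core were higher and 1 lower, against 12 and 4 without it. With both treatments the counts were 6 and 5 against 11 and 5. With shRNA in CSS they were 1 and 10 against 9 and 7, and for CSS in shRNA cells 3 and 8 against 9 and 7. These counts were not tested.

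**Figure D1:**
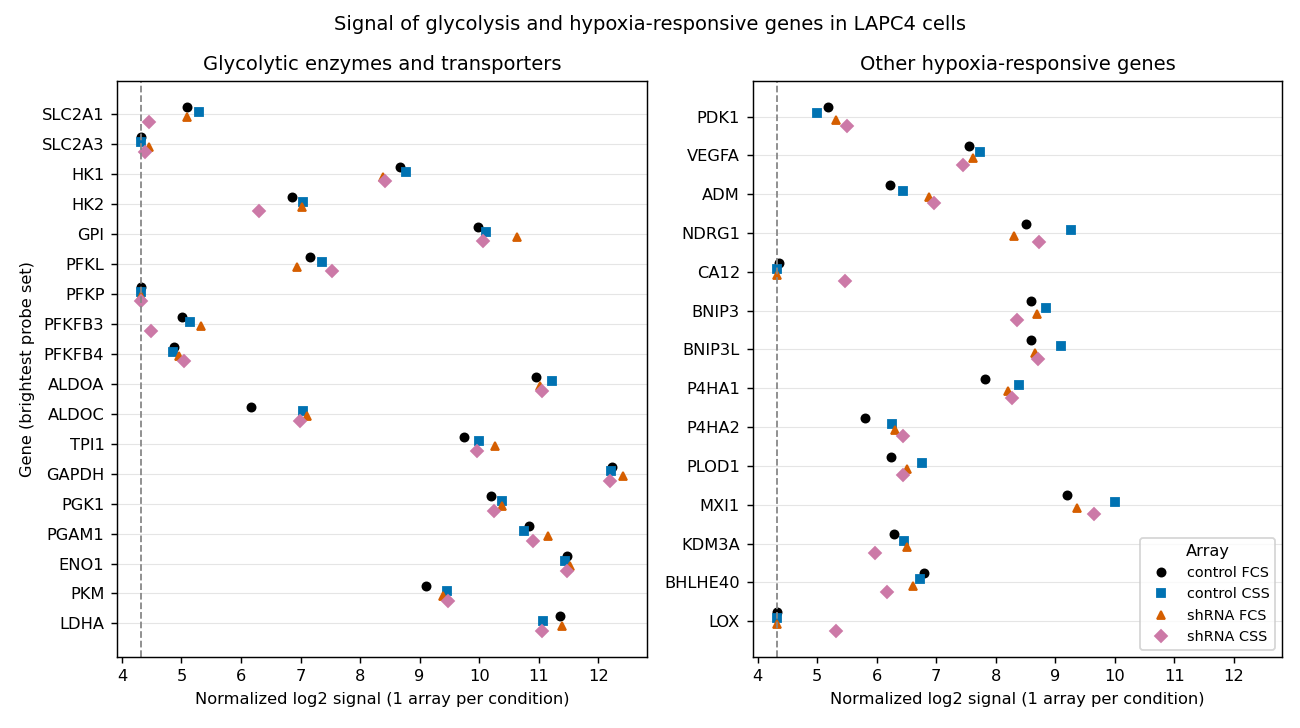
Normalized log2 signal (horizontal axis) of the measured glycolytic genes (left) and other hypoxia-responsive genes (right) on the 4 arrays, 1 point per array; the dashed line is the floor at 4.32. For most genes the 4 points lie close together, and CA12 and LOX leave the floor region only in shRNA cells in CSS.

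Serum was compared first, since androgen ablation was the treatment common to both kinds of cells. In control cells, 21 of the 29 genes with a change were higher in CSS and 8 were lower, with a median of 0.16 for glycolytic genes (11 of 16 higher) and 0.25 for other hypoxia-responsive genes (10 of 13 higher). Over all genes 53.2% were higher and the median was 0.02. No gene of either list reached 2-fold, which 0.3% of all genes did, and 3 reached 1.5-fold (ALDOC, MXI1 and NDRG1), against a background of 4.68%. In shRNA cells, 14 of 31 were higher in CSS and 17 lower (9 and 23 as deposited). There the medians were -0.13 for glycolytic genes (5 of 17 higher) and 0.07 for other hypoxia-responsive genes (9 of 14 higher), and 52% of all genes were higher. At least 1.5-fold differences were found for 6 genes, against 33.4%, and at least 2-fold ones for 2, CA12 and LOX, against 14.5%. As deposited the gene past 2-fold was HK2 instead, with a change of -1.22. These comparisons share no array. Of 29 genes with both changes, 15 (51.7%) differed in the same direction in control and shRNA cells, 10 of them higher and 5 lower, against 57.1% of all genes.

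A main effect of serum over all 4 arrays was tested with limma, with serum and shRNA as additive terms. In this fit the variance of each gene came from the trend over genes of similar signal, not from its own arrays. At a Benjamini-Hochberg adjusted p under 0.05 it called 3 of the 31 measured genes, 2 as higher and 1 as lower in CSS, with a background of 2.6% of 8855 genes tested (1.17% higher and 1.42% lower). MXI1, which encodes an antagonist of MYC, had normalized log2 signals of 9.20 in control cells in FCS and 9.36 in shRNA cells in FCS, and of 10.01 and 9.66 in the same cells in CSS. Both CSS values lay above both FCS values. MXI1 rose by 0.56 (SE 0.11, limma adjusted p = 8.12e-05, n = 2 arrays per serum). NDRG1, a stress-responsive gene that androgen and hypoxia both induce in prostate cells, had signals of 8.51 and 8.30 in FCS and of 9.26 and 8.73 in CSS, in control and shRNA cells in turn. Its CSS values again lay above its FCS values, and NDRG1 rose by 0.59 (SE 0.14, limma adjusted p = 0.00204). LDHA, the lactate dehydrogenase subunit that favours lactate formation, had signals of 11.35 and 11.39 in FCS and of 11.08 and 11.05 in CSS. LDHA fell by 0.31 (SE 0.085, limma adjusted p = 0.0175), and its values in one serum differed by no more than 0.04 between control and shRNA cells. In control and in shRNA cells the direction of all 3 was the same in every setting tried. On the values as deposited, however, MXI1 and NDRG1 were only 0.04 higher in CSS in shRNA cells, and limma called LDHA alone (adjusted p = 0.00332), where 0.25% of all genes were called. When arrays were only set to a common median, no gene of the lists was called by limma, against 0.798% of all genes, and 2 of 32 had an unadjusted p under 0.05. In limma without the trend 0 of 8855 genes were called at all, and 0 of the 31 and 312 of all genes had an unadjusted p under 0.05.

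**Figure D2:**
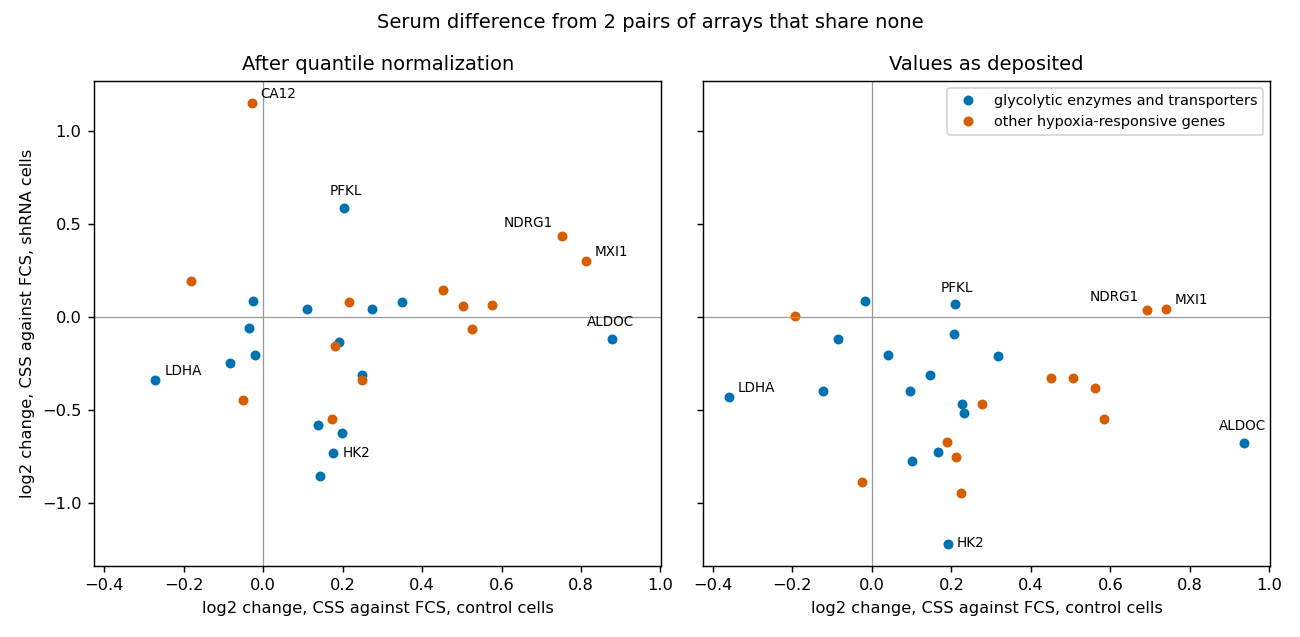
Log2 change in CSS against FCS in control cells (horizontal axis) and in shRNA cells (vertical axis), 1 point per gene, after quantile normalization (left) and for the values as deposited (right). MXI1 and NDRG1 lie in the upper right and LDHA in the lower left on the left side, and on the right most points move down and MXI1 and NDRG1 come to lie at 0.04 on the vertical axis; the vertical value of CA12 is a bound.

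Along the pathway, the glycolytic genes did not differ as a block. The glucose transporter gene SLC2A1 was dim, at 5.09 in control cells in FCS, 5.29 in control cells in CSS, 5.08 in shRNA cells in FCS and 4.46 in shRNA cells in CSS. It was lowest with both treatments, with a change against control cells in FCS of -0.64 and a local spread of 0.91. SLC2A3 was between the floor and 4.45. HK1, the housekeeping hexokinase that traps glucose in the cell, had signals of 8.67, 8.78, 8.39 and 8.43 in the same order. HK1 was lower in shRNA cells in both sera, by 0.28 in FCS and 0.35 in CSS, each close to its local spread (0.34 and 0.35). The shRNA estimate for HK1 was -0.32 (SE 0.15, limma adjusted p = 0.288). HK2, the inducible hexokinase, was at 6.86, 7.04 and 7.03 on the first 3 arrays and at 6.29 in shRNA cells in CSS, a change against control cells in FCS of -0.56 with a local spread of 0.62. As deposited this change was -1.02.

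GPI, which converts glucose 6-phosphate to fructose 6-phosphate, had signals of 9.98 in control cells in FCS, 10.12 in control cells in CSS, 10.64 in shRNA cells in FCS and 10.06 in shRNA cells in CSS. The shRNA array in FCS was high, and the other 3 lay within 0.14. With shRNA in FCS GPI was 0.66 higher (1.58-fold) against a local spread of 0.27, and in CSS it was 0.06 lower. The shRNA estimate was 0.30 (SE 0.096) and missed the threshold (limma adjusted p = 0.0511), the lowest of the 31 genes. Of the phosphofructokinase genes, PFKL had 7.15, 7.36, 6.94 and 7.53 with the same order of arrays, and both its probe sets were lower with shRNA in FCS and higher with both treatments, by 0.38 in the brightest, which was -0.13 as deposited. Of the genes for the bifunctional enzymes that set fructose 2,6-bisphosphate, PFKFB3 was at 5.00, 5.15, 5.33 and 4.48, and PFKFB4 stayed within 4.85 to 5.04. The PFKFB3 change with shRNA in FCS, 0.33, exceeded its local spread of 0.19, and the change of -0.52 with both treatments lay within a spread of 0.92.

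ALDOC, an aldolase otherwise known from brain, gave the largest changes among the glycolytic genes. Its signals were 6.16 in control cells in FCS, 7.04 in control cells in CSS, 7.10 in shRNA cells in FCS and 6.99 in shRNA cells in CSS. The control array in FCS was low, and the other 3 lay within 0.12 of each other. Against it ALDOC was 1.84-fold higher with CSS (0.88, local spread 0.30), 1.92-fold higher with shRNA (0.94, local spread 0.29) and 1.77-fold higher with both (0.83, local spread 0.62). The combined change was thus 1.00 less than the sum of the single ones. As deposited these changes were 0.94, 1.01 and 0.33. ALDOC had 1 probe set, and all 3 changes use the same low array. The ubiquitous aldolase gene ALDOA differed less, with 10.95, 11.23, 11.01 and 11.05.

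Triose phosphate isomerase (TPI1) had signals of 9.75 in control cells in FCS, 10.00 in control cells in CSS, 10.27 in shRNA cells in FCS and 9.96 in shRNA cells in CSS. Like GPI, it was highest in shRNA cells in FCS, 0.52 above the control in FCS with a local spread of 0.28. All 3 of its probe sets were higher there, by 0.26 to 0.52. The 0.26 is a bound, from a dim probe set at the floor in control cells in FCS. GAPDH had 12.24, 12.22, 12.41 and 12.20, and its 3 probe sets were 0.17 to 0.20 higher with shRNA in FCS. They carry the suffix by which the manufacturer marks probes that may match other transcripts, as do the brightest probe sets of TPI1 and ALDOA. PGAM1 had 10.84, 10.76, 11.15 and 10.90, and was 0.31 higher with shRNA in FCS against a local spread of 0.22. For PGK1 the brightest probe set was at 10.20, 10.39, 10.39 and 10.25. Its 3 kept probe sets were all higher with shRNA in FCS (0.16 to 0.37) but disagreed for CSS in control cells (-0.09 to 0.19). ENO1, at 11.45 to 11.53 on all arrays in its brightest probe set, had another bright probe set that was 0.61 lower in CSS in control cells. The pyruvate kinase gene PKM had 9.10 in control cells in FCS and 9.39 to 9.48 on the other 3. LDHA differed by 0.04 with shRNA in FCS, and by -0.02 as deposited.

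The shRNA was compared in each serum in turn. In FCS, 24 of 30 genes were higher in shRNA cells than in control cells and 6 lower, with medians of 0.17 for glycolytic genes (14 of 17 higher) and 0.13 for other hypoxia-responsive genes (10 of 13 higher). Over all genes 49.9% were higher and the median was 0. In CSS, 11 of 31 were higher and 20 lower, with medians of -0.04 (6 of 17 higher) and -0.30 (5 of 14 higher), against 50.5% of all genes. The split in CSS was 7 higher and 25 lower as deposited, and 16 and 16 with a common median. In CSS 5 genes differed at least 1.5-fold, against 33%, and 2 of these, CA12 and LOX, at least 2-fold and higher, against 14.5%. As deposited the 2 genes past 2-fold were HK2 (-1.22) and BHLHE40 (-1.02), both lower. These comparisons share no array, and 12 of 30 genes (40.0%) differed in the same direction in both, against 56.7% of all genes. No gene of the lists reached 2-fold with shRNA in FCS, where 1.2% of all genes did, and 3 reached 1.5-fold (ALDOC, GPI and ADM) against 6.54%. The main effect of shRNA called 0 of the 31 genes with limma, while 3.9% of all genes passed (2.33% lower), and 6 of the 31 had an unadjusted p under 0.05, against 12.6% of all genes. In limma with a floor of 100 GPI and PGAM1 were called, 2 of 22 against 9.41% of all genes. GPI alone was called with no filter (background 3.95%) and with the mean over probe sets (background 3.51%). The counts at 1.5-fold, at 2-fold and by limma were not tested against these shares and are not read as a result about the lists. The counts of genes by direction were not tested.

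The control array in FCS was the lowest of the 4 for 12 of the 28 genes above the floor on all arrays (42.9%), against 20.5% of 6974 genes. These were ALDOA, ALDOC, GPI, TPI1, PGK1 and PKM among the glycolytic genes, and ADM, BNIP3L, MXI1, P4HA1, P4HA2 and PLOD1 among the others. It was the highest for 1 gene, BHLHE40 (3.57%), against 17.3%. As deposited it was lowest for 7 of 28 (25%, background 12.8%) and highest for 2 (7.14%, background 19.8%). The comparisons of CSS, of shRNA and of both with control cells in FCS share this array, so that a low value on it enters all 3. The control array in CSS was the highest for 12 of the 28 genes (42.9%), against 24.6% of all genes. As deposited it was also the highest for 12, against 32.5%. The array of shRNA cells in FCS was the highest for 9 (32.1%), against 23.2%. The part of each array in the counts by direction was not tested.

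With both treatments, 20 of 31 genes were higher than in control cells in FCS, with medians of 0.06 for glycolytic genes (10 of 17 higher) and 0.27 for other hypoxia-responsive genes (10 of 14 higher), while 52.4% of all genes were higher. As deposited, where the median of all genes was -0.16, 13 were higher and 19 lower, and the medians were -0.083 and -0.077. CA12 and LOX reached 2-fold, 2 of 31 genes against a background of 14.8%, and 7 reached 1.5-fold against 34.4%. As deposited both missed 2-fold (0.99 and 0.89), and the 2 genes past it were HK2 (-1.02) and BHLHE40 (-1.04), both lower. CA12, a membrane carbonic anhydrase that helps to export acid, was at 4.35 in control cells in FCS, at the floor in control cells in CSS and in shRNA cells in FCS, and at 5.47 in shRNA cells in CSS. Its combined change was 1.12 (2.17-fold) with a local spread of 0.87, and 5 other probe sets of the gene were under the filter. LOX, which crosslinks collagen, was at the floor on 3 arrays and at 5.32 in shRNA cells in CSS, at least 2.00-fold higher, with its 2 other probe sets under the filter. Both lay near the floor, on the array where fewer probe sets of all kinds were under it and fibroblast genes also left it. With the floor at 100 or with the local median subtracted no gene of the lists reached 2-fold.

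Several of the other hypoxia-responsive genes modify collagen, among them LOX, described above, and PLOD2, which was under the filter. P4HA1, a catalytic subunit of collagen prolyl 4-hydroxylase, had signals of 7.82 in control cells in FCS, 8.39 in control cells in CSS, 8.21 in shRNA cells in FCS and 8.27 in shRNA cells in CSS. P4HA2, the alternative subunit, had 5.81, 6.26, 6.30 and 6.44, and the lysyl hydroxylase gene PLOD1 had 6.24, 6.77, 6.51 and 6.44. P4HA1, P4HA2 and PLOD1 were each lowest in control cells in FCS. As deposited PLOD1 was lowest in shRNA cells in CSS, its combined change turning from 0.20 to -0.24. The combined changes of P4HA1 and P4HA2, 0.46 and 0.64, were 0.0068 and 0.20 as deposited. With CSS in control cells P4HA1, P4HA2 and PLOD1 were 0.58, 0.45 and 0.53 higher, against local spreads of 0.32, 0.26 and 0.28. None of them passed the test of serum over the 4 arrays. ADM, the gene of the vasodilator peptide adrenomedullin, had 6.22, 6.43, 6.88 and 6.96. It was higher in shRNA cells in both sera, by 0.66 in FCS (local spread 0.30) and 0.52 in CSS (local spread 0.65), but the latter was -0.03 as deposited.

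The mitophagy receptor genes BNIP3 and BNIP3L had 8.59, 8.84, 8.69 and 8.35, and 8.59, 9.09, 8.66 and 8.71. Both were highest in control cells in CSS, and both probe sets of each gene were higher there than in control cells in FCS, BNIP3L by 0.35 to 0.50. In CSS the brightest probe sets were lower with shRNA, by 0.49 and 0.38. The second probe set of BNIP3L was 0.73 lower, whereas that of BNIP3 differed by only -0.0071. VEGFA, the gene of the angiogenic growth factor, was at 7.46 to 7.73 in its brightest probe set. Its 4 probe sets disagreed with both treatments, from -0.99 to 0.37, so no direction is given. PDK1, the kinase that switches off pyruvate dehydrogenase, had 5.18, 5.00, 5.31 and 5.51, all changes being within 1 local spread. The histone demethylase gene KDM3A had 6.28, 6.46, 6.52 and 5.97, and the repressor gene BHLHE40 6.79, 6.74, 6.62 and 6.17. Both were lowest with both treatments, on the array that was lowest for 35.9% of all genes above the floor (60.9% as deposited). For BHLHE40 both probe sets were lower than the reference in all 5 comparisons. The second was dim, at 4.32 to 4.72, and at the floor in shRNA cells in CSS, so that its changes against that array are bounds.

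The genes of the oxygen-sensing machinery itself were set beside these. HIF1A, the most widely expressed α subunit, had signals of 9.88 in control cells in FCS, 9.99 in control cells in CSS, 9.62 in shRNA cells in FCS and 9.61 in shRNA cells in CSS. Both shRNA values lay below both control values, by an estimated -0.32 (SE 0.10) that missed the threshold (limma adjusted p = 0.0564). EPAS1, which encodes the HIF-2α subunit, had 7.69, 7.65, 8.06 and 8.32, with both shRNA values above both control values, an estimate of 0.52 (SE 0.19) and a limma adjusted p of 0.0992. ARNT stayed within 5.99 to 6.16. The prolyl hydroxylase gene EGLN1 had 5.88, 5.75 and 5.98 and was at the floor in shRNA cells in CSS, at least 2.94-fold lower than in control cells in FCS. CITED2, a competitor of HIF for its coactivator, had 6.69, 7.37, 6.60 and 6.72, and EP300, that coactivator, 4.98, 5.38, 5.09 and 4.45. HIF3A, a dim inhibitory subunit, had 4.53, 4.58, 4.82 and 4.98. EGLN3 and VHL were under the filter and EGLN2 had no probe set assigned to it alone. Of 13 such genes tested, none was called for serum or for shRNA with limma, and the median for CSS in control cells was -0.02.

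Of 26 other genes of glycolysis and pyruvate use, limma called 1 as higher and 2 as lower in CSS, and none for shRNA. In limma without the trend none of the 26 was called. PCK2, the mitochondrial enzyme that makes phosphoenolpyruvate, had 8.77 and 8.69 in FCS and 9.59 and 9.08 in CSS, in control and shRNA cells in turn, and rose (limma adjusted p = 0.000197). On the values as deposited limma called no gene at all as higher in CSS, PCK2 included. DLD, the dihydrolipoamide dehydrogenase subunit of the pyruvate dehydrogenase complex, had 9.35 and 9.34 in FCS and 8.73 and 8.67 in CSS. DLD fell by 0.65 (SE 0.13, limma adjusted p = 5.27e-05), with values that differed little between control and shRNA cells. PDHB, the β subunit of its first enzyme, had 8.58 and 8.92 in FCS and 8.25 and 8.28 in CSS, and also fell (limma adjusted p = 0.0437). The complex was singled out after its values were seen. Its other measured genes, DLAT (6.35 and 6.71 in FCS, 5.76 and 5.70 in CSS), PDHA1 (7.75 and 8.05, 7.55 and 7.41) and PDHX (7.48 and 7.96, 7.40 and 6.96), had the same order and did not pass (limma adjusted p = 0.538, 0.361 and 0.259). Of the genes above the floor on all arrays, several differed most on the array that stood apart: HK3, a dim hexokinase gene, was at 4.55 to 4.61 on 3 arrays and at 5.92 in shRNA cells in CSS, PDK2 at 4.43 to 4.62 and at 5.50, and TIGAR at 5.50 to 5.74 and at 4.52.

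Of 21 further hypoxia-responsive genes tested, 1 was called as higher and 1 as lower in CSS, and 1 as lower with shRNA. ZNF395 had 7.61 and 7.44 in FCS and 8.18 and 8.12 in CSS (limma adjusted p = 0.0461). As deposited it was not called as higher, since limma called no gene as higher in CSS there. HIGD1A, a mitochondrial protein of the respiratory chain, had 9.77 and 9.63 in FCS and 9.22 and 9.28 in CSS (limma adjusted p = 0.00422). RBPJ, the DNA-binding partner of Notch, had 8.45 and 8.85 in control cells and 7.96 and 8.28 in shRNA cells, in FCS and CSS in turn (limma adjusted p = 0.0183). In limma without the trend none of ZNF395, HIGD1A and RBPJ was called. On the array of shRNA cells in CSS, the glycogen branching enzyme gene GBE1 was at 4.32 against 6.11 to 6.43 on the others, INSIG2 at 4.74 against 5.75 to 6.28, and VLDLR at 5.14 against 5.54 to 5.85. MAFF, a transcription factor gene, was at the floor there against 5.87 to 6.27. IGFBP3 was highest in shRNA cells in FCS, at 5.67 against 4.46 to 4.72. These lists were chosen with earlier results of the data known, and their counts stand beside the backgrounds of 2.6% for serum and 3.9% for shRNA.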

How the data were processed

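Gene expression was measured on 4 Affymetrix U133 arrays, 1 per condition, and grouped by the sample labels. The authors' methods and the labels name MAS5 signals; the deposited values are log2 values of 22277 probe sets. The methods also name a minimum of 20, present calls and quantile normalization, but the table holds all probe sets, no present calls and unequal distributions, so whether these are MAS5 signals unchanged is not settled, and the floor of 20 is on the deposited scale only. In the platform annotation 19070 probe sets have 1 gene symbol, 1043 have several and 2164 have no symbol; only the first were used, with symbols brought up to date by Entrez ID in RefSeq.

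The filter kept 15678 probe sets that reached 20 on 1 or more arrays. These were quantile normalized on the log2 scale and floored at 20, and each of 9193 genes was represented by its brightest probe set. Tests of main effects used limma 3.58.1 under R 4.3.3 (additive serum and shRNA, 1 residual degree of freedom, trend on mean signal, Benjamini-Hochberg over 8855 genes, threshold 0.05). Any interaction counts as error, and the prior degrees of freedom were infinite, so that the trend alone set each variance. The limma fit and the step for changes were tested on simulated data, and false calls there exceeded the nominal rate. Precision is limited by the number of arrays. The SEs and p-values rest on the spread of genes of similar signal between these arrays, not on a gene's own spread.

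The members and gene lists were chosen with earlier results of these data known. Named genes were those at least 2-fold changed, the 6 of each list with the largest change over the local spread, isoenzyme or family pairs, genes whose probe sets disagree, up to 4 of each pathway list with the largest change, given agreeing probe sets and values above the floor, HIF pathway genes and the shRNA targets; genes called by limma, MAFF and the pyruvate dehydrogenase complex were added after their values were seen. Alternatives were the deposited values, a common median, other floors and filters, the mean over probe sets or those without a suffix, the local median subtracted, a 1.5-fold threshold and limma without trend. List medians without genes whose probe sets disagree were added after seeing the data. Python 3.11.15, numpy 2.4.6, pandas 2.3.3 and matplotlib 3.10.9 were used for the other steps.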

Additional observations from a re-analysis of the deposited data

Results flagged for a closer look

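Differences between conditions drew attention to 3 medians, and none of these differences was tested, since each condition has 1 array. The median serum change of the glycolytic genes was 0.16 in control cells and -0.13 in shRNA cells. Their median shRNA change was 0.17 in FCS and -0.041 in CSS. For the other hypoxia-responsive genes the median shRNA change was 0.13 in FCS and -0.30 in CSS. The second value of each pair rests on the array of shRNA cells in CSS, which stood apart from the others.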

How the results depend on the processing

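No paired analysis was possible because the conditions share fewer than 2 replicate numbers; the additive limma model compares serum within each kind of cell and shRNA within each serum. With 1 array per condition, none could be left out with residual degrees of freedom remaining. On the deposited values, the medians with both treatments turned to -0.083 for glycolytic and -0.077 for other hypoxia-responsive genes, the latter genes' median serum change in shRNA cells turned to -0.36, 1 gene was at least 2-fold changed with shRNA in FCS and 1 with CSS in shRNA cells, and 7 kept their serum direction in both kinds of cells. With a common median, that last median was -0.086, 1 gene reached 2-fold with shRNA in FCS, and 9 had the same serum direction. With a floor of 100 the count at 2-fold was 0 with both treatments, 0 with shRNA in CSS and 0 with CSS in shRNA cells, as it was with the local median subtracted, and 7 genes had the same shRNA direction in both sera. With a signal of at least 100 required on 1 array, 1 gene reached 2-fold with CSS in control cells, 1 with shRNA in FCS and 1 with both, 0 did in the comparisons within CSS and within shRNA cells, and 7 had the same shRNA direction. At a 1.5-fold threshold the counts were 3, 3, 7, 5 and 6 in the order CSS in control cells, shRNA in FCS, both, shRNA in CSS and CSS in shRNA cells. For limma, the count of genes called for serum was 0 without trend, 1 on deposited values (LDHA) and 0 with a common median, and for shRNA it was 2 with a floor of 100, 1 with no filter and 1 with the mean over probe sets. Why these values moved was not tested. Quantile normalization sets the 4 distributions equal, whereas the deposited values do not have equal ones. With both treatments the direction differed between settings for some genes, PFKL and PLOD1 among them. For others, such as HK2 and BHLHE40, it was the same in every setting.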
